A study of Mus musculus with 48 samples.

Results

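The genes described here carry peptide antigens to the cell surface on major histocompatibility complex (MHC) class I molecules. They were the heavy chain genes H2-K1 and H2-D1, the light chain gene B2m, the peptide transporter genes Tap1 and Tap2, the loading chaperone gene Tapbp, and the immunoproteasome subunit genes Psmb8, Psmb9 and Psmb10. They were chosen by symbol, as every probe set of an Affymetrix mouse array that the platform annotation gives to 1 of these 9 genes and to no other. That rule gave 25 probe sets of 20380 with a single gene symbol, or 9 genes of 12393. H2-D1 had 9 probe sets, H2-K1 and Tap1 had 4 each, B2m and Tapbp had 2 each, and Tap2, Psmb8, Psmb9 and Psmb10 had 1 each. A further 3 probe sets listed under a member together with other genes were not used here.

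The study measured lung RNA of male C57BL/6 mice in 6 groups of 8 animals, 1 array an animal. Diet-induced obese (DIO) mice were raised from week 6 of life on a diet in which fat gave 60 kcal%. In the regular weight (RW) mice the share was about 5 kcal%. From 15 weeks of age the animals breathed, through a nose-only inlet, mainstream cigarette smoke (MS, drawn through the cigarette), sidestream smoke (SS, given off at its burning end) or filtered air as sham controls (SC). Exposure lasted 5 hours a day on 8 days within 2 weeks, and lungs were taken 1 day after the last exposure. The groups were thus DIO-MS, DIO-SS, DIO-SC, RW-MS, RW-SS and RW-SC, and they shared sex, strain, supplier and the nose-only procedure. The obesity was a dietary one, so that diet and body weight cannot be told apart. The supplied diet text speaks of a lipopolysaccharide study to follow the diet, while the treatment text speaks of smoke only, and 4 RW animals carry replicate numbers in their source names that repeat those of other animals. They were taken as separate animals by their titles.

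MHC class I molecules display fragments of a cell's own proteins to CD8 T cells, and their absence is read by natural killer (NK) cells. Proteasomes cut the proteins, and in the immunoproteasome the subunits encoded by Psmb8, Psmb9 and Psmb10 take the catalytic places of Psmb5, Psmb6 and Psmb7. The TAP1 and TAP2 proteins together pump the fragments into the endoplasmic reticulum, where tapasin, the product of Tapbp, holds empty class I molecules beside the pump until a fragment fits. Interferons raise the transcription of all these genes, interferon gamma most broadly, and alveolar macrophages and the respiratory epithelium are among the lung cells that respond.

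Of the 9 genes, 7 lie in the MHC region of chromosome 17, B2m lies on chromosome 2 and Psmb10 on chromosome 8. Psmb9, Tap1, Psmb8 and Tap2 follow each other within 34292 bases, at chr17:34182030-34216321 of RefSeq's GRCm38.p6. Promoter windows, from 250 bases before to 50 bases after a gene's annotated start, were found in RefSeq's GRCm38.p6 table for 8 members, and none for Tap2. H2-K1 has 2 windows that overlap almost fully, of which the first listed is used, while its annotated interval reaches further upstream, to base 34000619. The windows of the heavy chain genes and B2m are printed because these 3 genes correlated closely with each other across arrays, and that of Tap1 because Psmb9 starts inside it. H2-K1 is at chr17:34000298-34000597 on the minus strand, H2-D1 at chr17:35262844-35263143 on the plus strand, B2m at chr2:122147437-122147736 on the plus strand and Tap1 at chr17:34187306-34187605 on the plus strand. Capitals mark, in H2-K1 and H2-D1, the motifs GGGATTCCC (of the kappa B kind) and TTTCNNTTC (of the interferon-stimulated response element kind), in B2m the motif GAAANNGAA (of the interferon regulatory factor kind), and in Tap1 the bases between its start and that of Psmb9.
H2-K1: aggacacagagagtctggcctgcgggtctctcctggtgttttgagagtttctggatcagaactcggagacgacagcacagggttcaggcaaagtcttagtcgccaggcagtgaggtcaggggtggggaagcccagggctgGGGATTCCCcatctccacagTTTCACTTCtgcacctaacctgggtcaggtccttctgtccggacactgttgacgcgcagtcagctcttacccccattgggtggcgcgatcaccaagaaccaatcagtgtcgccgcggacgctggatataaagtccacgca
H2-D1: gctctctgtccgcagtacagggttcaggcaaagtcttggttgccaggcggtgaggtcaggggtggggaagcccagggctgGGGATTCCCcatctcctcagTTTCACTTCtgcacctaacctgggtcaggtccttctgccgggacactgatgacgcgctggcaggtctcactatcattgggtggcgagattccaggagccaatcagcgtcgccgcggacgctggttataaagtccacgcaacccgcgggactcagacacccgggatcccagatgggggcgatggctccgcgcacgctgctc
B2m: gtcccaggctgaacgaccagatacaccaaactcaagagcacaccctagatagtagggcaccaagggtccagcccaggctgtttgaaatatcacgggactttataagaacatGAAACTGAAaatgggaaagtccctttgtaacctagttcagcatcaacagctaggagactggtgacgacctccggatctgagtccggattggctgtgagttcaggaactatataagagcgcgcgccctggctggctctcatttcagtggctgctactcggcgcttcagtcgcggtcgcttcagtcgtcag
Tap1: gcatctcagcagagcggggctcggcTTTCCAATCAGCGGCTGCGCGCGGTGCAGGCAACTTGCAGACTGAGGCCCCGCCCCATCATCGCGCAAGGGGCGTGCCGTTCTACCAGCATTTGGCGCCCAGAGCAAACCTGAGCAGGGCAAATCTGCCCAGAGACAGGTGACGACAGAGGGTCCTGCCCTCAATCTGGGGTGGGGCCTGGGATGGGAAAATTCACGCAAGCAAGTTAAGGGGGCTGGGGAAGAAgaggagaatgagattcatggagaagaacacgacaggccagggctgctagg

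Both strands were searched. The motifs are short forms chosen with the members' windows in view, so that the shares of windows below describe the motifs and say nothing of how unusual the members are. GGGATTCCC was found in 0.353% of 32851 mouse windows of this length and TTTCNNTTC in 7.52%, and the windows of H2-K1 and H2-D1 held both side by side. GAAANNGAA was found in 8.56% of windows and, among the members, in that of B2m. The motifs TTTCNNTTC and GAAANNGAA are variants of the same repeat and can overlap in a window. A further motif, TTCNNNGAA (of the gamma-activated site kind), was found in 8.3% of windows and, among the members, in that of Psmb8. The H2-K1 and H2-D1 windows were identical at 211 of 239 aligned bases (88.3%). Tap1 and Psmb9 start 225 bases apart and are read away from each other, so that their windows share 275 bases. A motif match is a description of letters, not a measured binding site.

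Before the results, 5 arrays need naming. DIO-SC-3, DIO-SC-7, RW-SS-6, DIO-MS-1 and DIO-MS-6 correlated with the other arrays at a mean r of 0.962 to 0.982, against at least 0.987 for the other 43. On DIO-SC-7 thymocyte and fat markers scored 5.19 and 5.26 above their means, on DIO-SC-3 fat and skeletal muscle or squamous epithelium markers scored 2.76 and 8.01, and on RW-SS-6 fat markers scored 5.39 (log2 deviations averaged over a list). DIO-MS-1 and DIO-MS-6 showed high interferon-induced genes, described further on. Sftpc, the surfactant protein C gene of alveolar type 2 cells, had a log2 signal of 14.97 to 15.13 across all 48 arrays. The highest value of the data was 15.27, so Sftpc alone says little of how much lung a sample held. The lung epithelium markers together scored -0.42 on DIO-SC-7 and endothelial markers -0.67, each the lowest of the 48 arrays. The counts of calls below are given with all arrays and, where they change, without these 5 arrays.

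Expression is given as the log2 signal the authors deposited, made by robust multi-array averaging (RMA). A gene is represented by its probe set with the highest mean over all arrays. Levels of different genes are not set against each other, since each probe set has its own affinity. H2-K1 had a lowest, median and highest log2 signal of 13.64, 13.76 and 14.41 in DIO-MS lungs, 13.50, 13.59 and 13.76 in DIO-SS lungs, and 13.32, 13.55 and 13.67 in DIO-SC lungs. In RW-MS lungs these were 13.46, 13.68 and 14.12, in RW-SS lungs 13.41, 13.67 and 13.94, and in RW-SC lungs 13.52, 13.63 and 13.97. The 6 groups overlapped, and the highest arrays were DIO-MS-1 and DIO-MS-6, at 14.41 and 14.30.

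The DIO-MS group had the highest mean of the 6 groups for 8 of the 9 genes, and RW-SS for Psmb9. DIO-SC had the lowest mean for 7 genes, and DIO-SS for Tap2 and Psmb10. In H2-K1, H2-D1, Tapbp and Psmb8 the order of means was the same, DIO-MS, RW-MS, RW-SS, RW-SC, DIO-SS and DIO-SC. For every gene the ranges of each pair of neighbours in the order overlapped. Some steps were still larger than the SD of either group. For Psmb8 the step from RW-SC to DIO-SS was 0.21, with SDs of 0.13 and 0.09. Without DIO-MS-1 and DIO-MS-6, DIO-MS was highest for 1 gene only, RW-MS for 5, RW-SS for 2 and RW-SC for 1, and the lowest groups were as before.

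**Figure D1:**
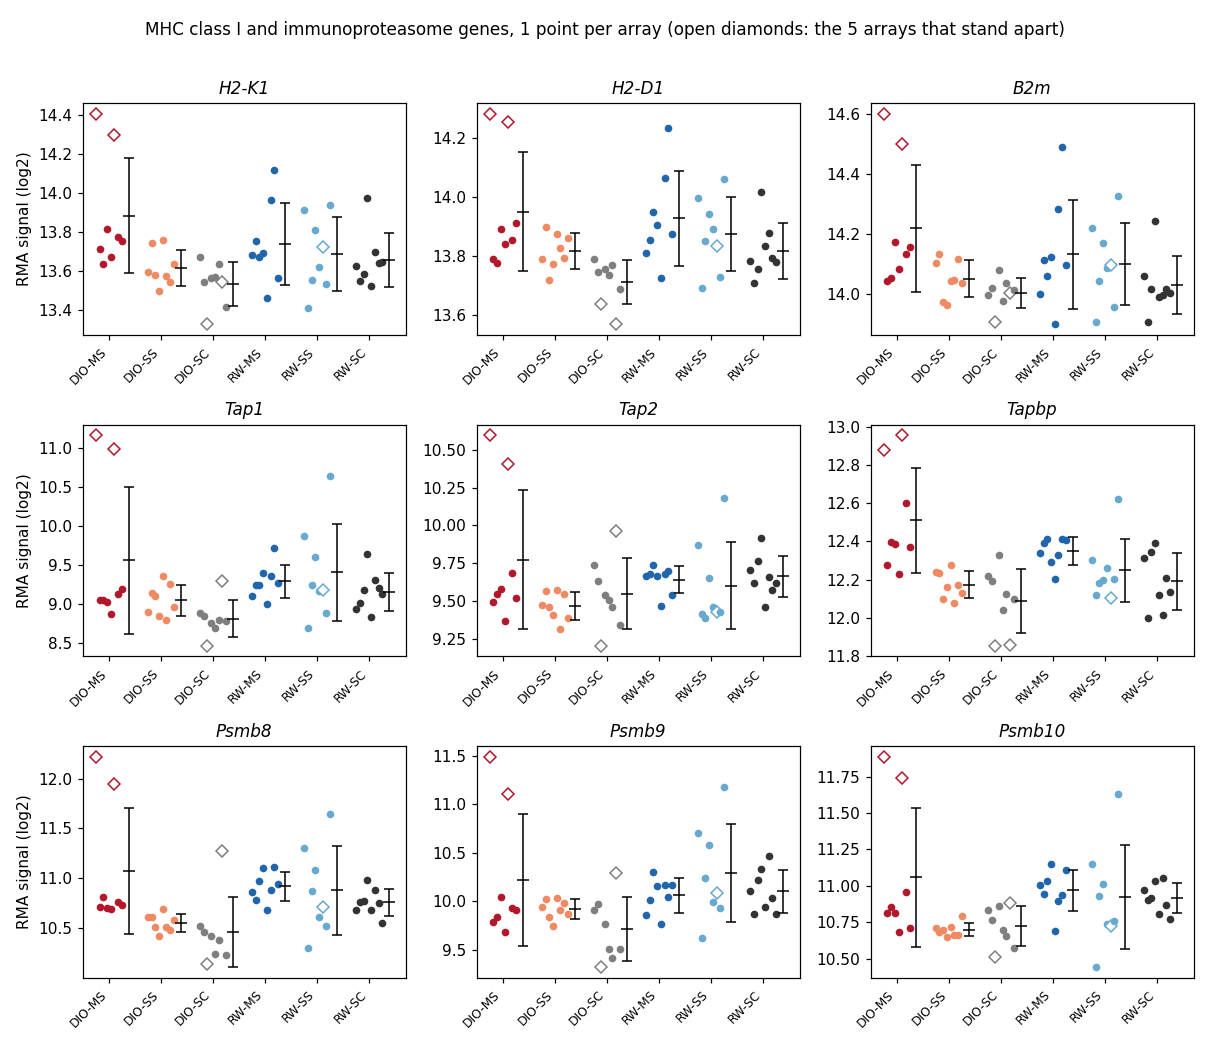
RMA log2 signal (vertical axes, differing between panels) of the 9 genes in the 6 groups, 1 point an array, with the group mean and SD drawn as a bar to the right of its 8 points; open diamonds are the 5 arrays that correlate least with the rest. In each panel DIO-MS-1 and DIO-MS-6 sit at the top of the DIO-MS column while the other 6 DIO-MS arrays lie among the remaining groups, and RW-SS-8 is the highest point of its group.

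Mainstream smoke against air in obese mice gave the most calls of the 11 comparisons. There 7 of the 9 genes rose and none fell (limma, Benjamini-Hochberg adjusted p below 0.05 over all probe sets), while 20.5% of the 12393 genes were called in this comparison in either direction and 11.3% were called higher. The median difference of the 9 genes was 0.35 on the log2 scale, against -0.02 over all genes. Over probe sets, 16 of the 25 were called higher, against 10.2% of all probe sets. Without DIO-MS-1 and DIO-MS-6, 1 of the 25 was called higher, a Tapbp probe set, against 7.53% of all probe sets. Without all 5 arrays 2 were, against 8.14% of all probe sets. No gene separated the groups completely, and 3.61% of all genes did. In a lung, more RNA per cell and more cells of a type rich in it cannot be told apart.

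RNA for both chains of the class I molecule rose, for the heavy chains as read by probe sets that can match several transcripts. H2-K1 averaged 13.88 ± 0.30 in DIO-MS lungs and 13.53 ± 0.11 in DIO-SC lungs (log2 signal, SD, n = 8 each), a difference of 0.35 ± 0.09 (SE) with a limma adjusted p of 0.0048. H2-D1, the second classical heavy chain of this strain, had a lowest, median and highest log2 signal of 13.78, 13.87 and 14.28 in DIO-MS lungs and 13.57, 13.74 and 13.79 in DIO-SC lungs. Of the 8 DIO-MS arrays, 6 were above every DIO-SC array, DIO-MS-2 matched the highest of them at 13.79, and the H2-D1 difference was 0.24 ± 0.07 (limma adjusted p = 0.0069). B2m encodes beta-2 microglobulin, the light chain without which heavy chains do not reach the surface. Its log2 signal was 14.04, 14.15 and 14.60 (lowest, median, highest) in DIO-MS lungs and 13.91, 14.01 and 14.08 in DIO-SC lungs, with 6 of 8 DIO-MS arrays above all DIO-SC arrays and a difference of 0.21 ± 0.07 (limma adjusted p = 0.023).

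Among the transport and loading genes, Tapbp had the smallest adjusted p of all members. Its log2 signal was 12.23, 12.39 and 12.96 in DIO-MS lungs (lowest, median, highest) and 11.85, 12.11 and 12.33 in DIO-SC lungs. Here 6 of the 8 DIO-MS arrays exceeded every DIO-SC array, and the difference was 0.42 ± 0.08 (limma adjusted p = 1.3e-04). Tap1 showed the largest difference of the 9 genes, 0.74 ± 0.24 (limma adjusted p = 0.022), and its values came apart within the group: 11.16 on DIO-MS-1, 10.99 on DIO-MS-6 and 8.86 to 9.18 on the other 6 DIO-MS arrays, against 8.46 to 9.29 in DIO-SC lungs. Only these 2 DIO-MS arrays were above all DIO-SC arrays. The highest DIO-SC value was that of DIO-SC-7, and the others of its group reached 8.89. Of the other 6 DIO-MS arrays, only DIO-MS-5 lay below 8.89. Tap2, the partner of Tap1 in the transporter, was not called, with a difference of 0.23 (95% interval -0.02 to 0.47, limma adjusted p = 0.21) and log2 signals of 9.36, 9.56 and 10.60 in DIO-MS lungs and 9.20, 9.52 and 9.96 in DIO-SC lungs.

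The immunoproteasome genes had the same 2 arrays at the top. Psmb8, which encodes the subunit beta 5i, had log2 signals of 12.22 on DIO-MS-1, 11.95 on DIO-MS-6 and 10.69 to 10.81 on the other 6 DIO-MS arrays, against a lowest, median and highest of 10.15, 10.40 and 11.27 in DIO-SC lungs. The Psmb8 difference was 0.61 ± 0.17 (limma adjusted p = 0.0085). The highest DIO-SC value belonged to DIO-SC-7, the array with thymocyte and fat markers, and the others of its group reached 10.52. Psmb9, for beta 1i, had a lowest, median and highest of 9.68, 9.92 and 11.49 in DIO-MS lungs and 9.32, 9.63 and 10.29 in DIO-SC lungs, a difference of 0.51 ± 0.19 (limma adjusted p = 0.049). The Psmb9 call was lost on leaving out DIO-MS-1 (0.33, limma adjusted p = 0.19), DIO-MS-6 (0.39, 0.16), or any 1 of DIO-SC-3, DIO-SC-4, DIO-SC-5, DIO-SC-6 and DIO-SC-8 (0.46 to 0.52). Without both DIO-MS arrays it was at 0.15 (0.58), and with centred arrays or a trended robust prior the adjusted p was 0.050 and 0.053. Psmb10, for beta 2i, was not called at 0.33 (95% interval 0.08 to 0.59, limma adjusted p = 0.056), with 10.68, 10.84 and 11.89 in DIO-MS lungs and 10.51, 10.73 and 10.88 in DIO-SC lungs.

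DIO-MS-1 and DIO-MS-6 carried most of these calls. Without both, 1 of the 9 genes was called, Tapbp at 0.29 ± 0.07 (limma adjusted p = 0.0047), and the median difference was 0.15 with 13.1% of all genes called. H2-K1 was then at 0.19 ± 0.08 (limma adjusted p = 0.12), Tap1 at 0.24 ± 0.17 (0.41), Psmb8 at 0.27 ± 0.13 (0.20) and Tap2 at -0.02 ± 0.09 (0.94). Leaving out either array alone left 4 genes called. Without all 5 arrays that stand apart 2 genes were called, Psmb8 at 0.36 ± 0.12 (limma adjusted p = 0.037) and Tapbp at 0.21 ± 0.07 (0.033). In that fit 9.19% of all genes were called higher. With the spread taken from DIO-MS and DIO-SC arrays alone, 1 of the 9 was called, where 1615 of 20380 probe sets were.

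**Figure D2:**
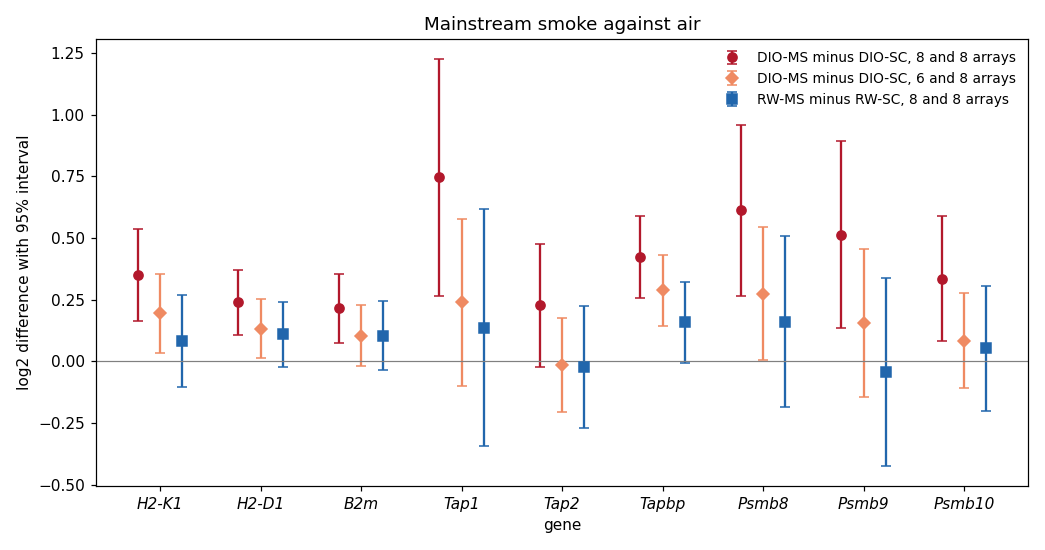
Difference of mean log2 signal (vertical axis, points, with 95% intervals from limma) between mainstream smoke and air for each gene (horizontal axis), in obese mice with all arrays (red circles), in obese mice without DIO-MS-1 and DIO-MS-6 (orange diamonds) and in regular weight mice (blue squares). Removing the 2 arrays lowers each of the 9 differences, for Tap1 to 0.24 against 0.74 with all arrays, and the largest is then that of Tapbp at 0.29.

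In regular weight mice, mainstream smoke against air gave no call among the 9 genes (limma, 0 also at unadjusted p below 0.05), where 14.6% of all genes were called. The differences ran from -0.04 for Psmb9 to 0.16 for Psmb8, with a median of 0.10 against -0.03 over all genes. Tapbp stood at 12.21, 12.36 and 12.41 in RW-MS lungs (lowest, median, highest) and 12.00, 12.17 and 12.39 in RW-SC lungs, a difference of 0.16 ± 0.08 (limma adjusted p = 0.20). The RW-MS values were narrow and lay at the upper end of the RW-SC range. B2m differed by 0.10 ± 0.07 (limma adjusted p = 0.34) and H2-D1 by 0.11 ± 0.07 (0.28).

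Whether mainstream smoke acted differently in the 2 diets was tested as the difference of differences. It was positive for all 9 genes, from 0.11 for B2m to 0.61 for Tap1, and called for none, with 3 higher at unadjusted p below 0.05 and 0.742% of all genes called by limma. For Tap1 the 95% interval was -0.07 to 1.29 and for Tapbp 0.03 to 0.50 (limma adjusted p = 0.45 and 0.31). Without DIO-MS-1 and DIO-MS-6 the values were 0.10 ± 0.23 for Tap1 and 0.13 ± 0.10 for Tapbp, and for B2m 0.00 ± 0.08. The data therefore did not separate the responses of the 2 diets for any member.

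Mainstream against sidestream smoke in obese mice gave 4 calls of 9, all higher, with 15.8% of all genes called and 8.47% called higher. The called genes were Tapbp at 0.34 ± 0.08 (limma adjusted p = 0.0030), Psmb8 at 0.52 ± 0.17 (0.035), H2-K1 at 0.27 ± 0.09 (0.043) and Psmb10 at 0.36 ± 0.13 (0.048). The median of the 9 was 0.31, against -0.04 over all genes. The DIO-SS lungs resembled each other closely. Psmb10 had a lowest, median and highest of 10.68, 10.84 and 11.89 in DIO-MS lungs, against 10.65, 10.69 and 10.79 in DIO-SS lungs, so that 6 of 8 DIO-MS arrays lay above all DIO-SS arrays.

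These 4 calls moved readily. Without DIO-MS-1 and DIO-MS-6 none of the 9 was called (limma, Tapbp nearest at 0.20 ± 0.07, adjusted p = 0.10), with 6.44% of all genes called. Without the 5 arrays only Tapbp was called (limma, 0.20 ± 0.07, adjusted p = 0.040), where 1916 of 20380 probe sets were. Leaving out DIO-MS-1, DIO-MS-6, DIO-SS-3, DIO-SS-4, DIO-SS-6 or DIO-SS-7 alone left 1 call, and DIO-SS-1 or DIO-SS-8 left 2. Centring each array on its median also left 2 (3132 of 20380 probe sets called), and fitting only the compared groups left 1 (3370 called). In regular weight mice the same comparison called none of the 9 (limma, 0 at unadjusted p below 0.05, 9.34% of all genes called), with differences from -0.23 for Psmb9 to 0.10 for Tapbp.

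Sidestream smoke against air called no member in either diet. In obese mice the differences ran from -0.08 for Tap2 to 0.23 for Tap1 (limma, 0 of 9 also at unadjusted p below 0.05, 6.26% of all genes called). In regular weight mice they ran from -0.06 for Tap2 to 0.25 for Tap1 (limma, 0 of 9 at either threshold, 2.25% of all genes called). The Tap1 value in regular weight mice rested on scattered arrays: 8.69, 9.21 and 10.64 in RW-SS lungs (lowest, median, highest) against 8.83, 9.16 and 9.63 in RW-SC lungs. The difference of the sidestream responses between diets lay between -0.03 and 0.05 for all 9 genes, with none called (limma, 0 at unadjusted p below 0.05, 0.605% of all genes called). Its interval for Tap1 was -0.70 to 0.66.

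Obesity alone, in air, came with lower means of all 9 genes and no call (limma, 1 lower at unadjusted p below 0.05, 7.56% of all genes called). The differences ran from -0.03 for B2m to -0.39 for Psmb9, with a median of -0.12 against -0.03 over all genes. Psmb9 had a lowest, median and highest log2 signal of 9.32, 9.63 and 10.29 in DIO-SC lungs and 9.86, 10.07 and 10.47 in RW-SC lungs, a difference of -0.39 ± 0.19 (limma adjusted p = 0.22). The highest DIO-SC value was again DIO-SC-7 and the lowest DIO-SC-3. Without the 5 arrays, where 1461 of 20380 probe sets were called, 1 of the 9 genes passed the test. It was Psmb8 at -0.38 ± 0.11 (limma adjusted p = 0.030), and Psmb9 was at -0.43 ± 0.14 (0.055).

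Under sidestream smoke the means of all 9 genes were again lower in obese than in regular weight mice, from -0.05 for B2m to -0.37 for Psmb9, and under mainstream smoke all 9 were higher, from 0.02 for H2-D1 to 0.27 for Tap1. None was called in either (limma, 0 at unadjusted p below 0.05 in both, 0.944% of all genes called under sidestream and 1.11% under mainstream smoke). Without DIO-MS-1 and DIO-MS-6 the mainstream median was -0.11 in place of 0.15. The air and mainstream comparisons share no array, but neither gave a call.

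Single animals differed more than groups did. For each array a score was taken as the mean, over the 9 genes, of its deviation from the gene's mean over 48 arrays. The score was 1.01 on DIO-MS-1 and 0.86 on DIO-MS-6, while the median of the DIO-MS group was -0.01. It was 0.65 on RW-SS-8, 0.32 on RW-SS-1, 0.26 on RW-MS-7 and 0.23 on RW-SC-4, so that each regular weight group, air included, held an array above every DIO-SC and DIO-SS array. The highest DIO-SC and DIO-SS scores were 0.03 and -0.01.

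RW-SS-8 was the highest of its group for all 9 genes, by a median of 0.76 over the median of the other 7. Its Tap1 signal was 10.64, its Psmb8 signal 11.65 and its Psmb9 signal 11.18, where the next highest arrays of the group, all RW-SS-1, read 9.87, 11.30 and 10.71. RW-SC-4 was the highest of its group for 7 genes, with H2-K1 at 13.97 where the others of its group reached 13.70. RW-MS-7 was the highest of its group for 5 genes. These were H2-K1, H2-D1 and B2m, at 14.12, 14.24 and 14.49, and Tap1 and Psmb8, at 9.71 and 11.11. Its Psmb9 signal, 10.04, lay below the group median of 10.10.

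**Figure D3:**
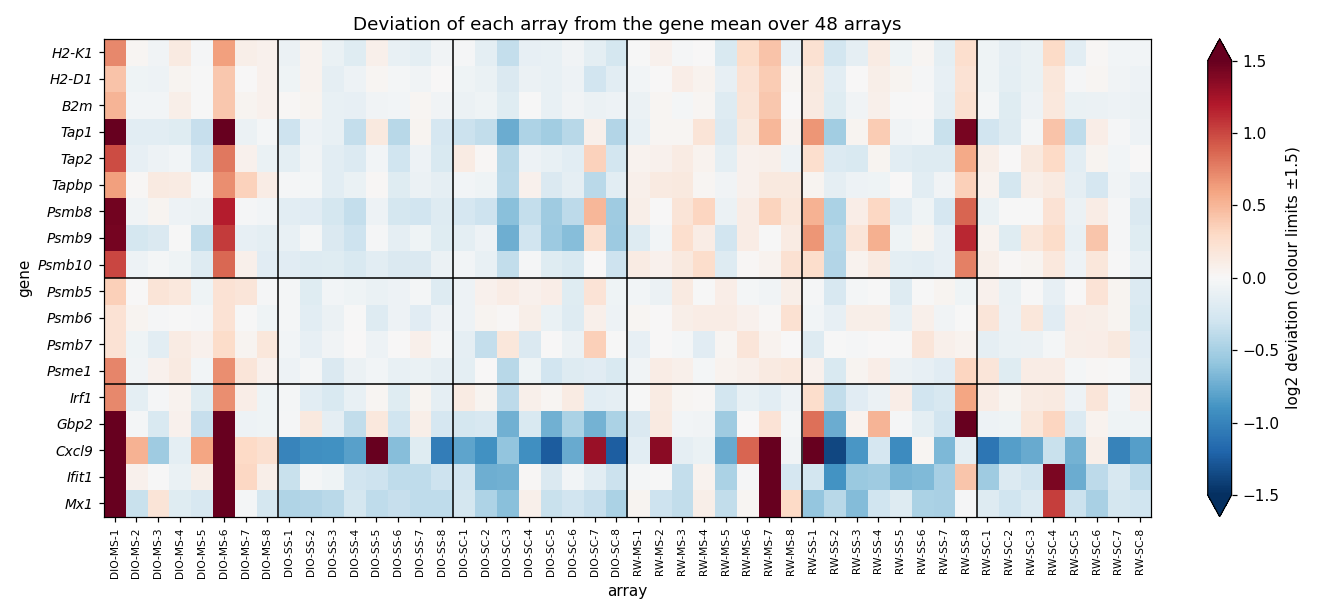
Deviation of each array (columns, in 6 groups of 8 divided by vertical lines) from the mean of each gene over 48 arrays (rows, log2, colours limited to ±1.5), for the 9 genes, for the constitutive subunits with Psme1, and for interferon-induced genes, divided by horizontal lines. Columns DIO-MS-1, DIO-MS-6 and RW-SS-8 lie above the mean in all 9 genes, with scores of 1.01, 0.86 and 0.65. The rows Psmb5, Psmb6 and Psmb7 stay pale, with means of 0.26 on DIO-MS-1 and 0.23 on DIO-MS-6. H2-K1, H2-D1 and B2m are about as pale on RW-SS-8, with a mean of 0.23.

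The 9 genes moved together across animals. Their 36 pairwise correlations over the 48 arrays ran from 0.66 to 0.94 with a median of 0.79, and within groups (group means removed) the median was 0.77. Over the 43 arrays without the 5 that stand apart they ran from 0.46 to 0.91 with a median of 0.68. All points share the same arrays and their normalisation, so these are descriptions. H2-K1, H2-D1 and B2m correlated with each other at 0.88 to 0.91 over the 43 arrays, and Tap1 with Psmb8 at 0.90 and with Psmb9, which shares its promoter, at 0.87. Tapbp correlated at 0.46 with Psmb9 and at most at 0.64 with any other member.

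Other genes of the pathway were taken from lists, and entries not measured by a single-symbol probe set, such as Psme2 and Nlrc5, are not used here. In the list of loading and trimming partners 6 of 7 genes rose with mainstream smoke against air in obese mice and none fell. Their median was 0.23, and 11.3% of all genes were called higher there. The 6 genes included Erap1, the peptidase that trims fragments to length, at 0.32 ± 0.07 (limma adjusted p = 0.0013), the tapasin relative Tapbpl at 0.39 ± 0.09 (0.0010), and the chaperone genes Calr at 0.24 ± 0.06 (0.0020) and Pdia3 at 0.23 ± 0.07 (0.011). Without DIO-MS-1 and DIO-MS-6, where 8.67% of all genes were called higher, 4 of the 7 were called. Without the 5 arrays, where 9.19% were, none was (limma, median 0.15). In regular weight mice 1 of the 7 rose, Sec61a1, a gene of the protein channel of the endoplasmic reticulum (0.22 ± 0.06, limma adjusted p = 0.0082), where 14.6% of all genes were called.

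Of 7 constitutive subunits and proteasome partners 1 rose in the same obese comparison, near the 11.3% of all genes called higher. It was Psme1, a subunit of the interferon-inducible cap PA28, at 0.41 ± 0.08 (limma adjusted p = 3.0e-04), and it was at 0.24 ± 0.07 (0.0086) without DIO-MS-1 and DIO-MS-6. The catalytic subunits replaced in the immunoproteasome were not called: Psmb5 differed by 0.10 ± 0.06 (limma adjusted p = 0.23), Psmb6 by 0.07 ± 0.05 (0.37) and Psmb7 by 0.12 ± 0.07 (0.24). On DIO-MS-1 the mean deviation was 1.30 over Psmb8, Psmb9 and Psmb10 and 0.26 over Psmb5, Psmb6 and Psmb7. On DIO-MS-6 these were 1.03 and 0.23, and on RW-SS-8 0.92 and -0.01. The arrays were picked by a score that holds the inducible subunits, and the constitutive values on DIO-MS-1 and DIO-MS-6 were the highest of the 48 arrays. Over all arrays the whole list of 7 genes, which also holds Psme1, correlated with the class I score at r = 0.68, and at 0.38 without the 5 arrays. The difference between the inducible and the constitutive subunits was not tested.

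Other class I and related heavy chains showed no common direction. Of 10 measured genes 1 rose with mainstream smoke in obese mice, near the 11.3% of all genes called higher. It was H2-M3, which presents formylated peptides, at 0.37 ± 0.12 (limma adjusted p = 0.020). Fcgrt, the neonatal Fc receptor heavy chain that also pairs with beta-2 microglobulin, fell by 0.24 ± 0.06 there (limma adjusted p = 0.0045) and by 0.29 ± 0.06 in regular weight mice (limma adjusted p = 7.4e-04). With DIO-MS-1 and DIO-MS-6 left out neither was called in obese mice, with H2-M3 at 0.15 ± 0.09 and Fcgrt at -0.15 ± 0.06 (limma adjusted p = 0.33 and 0.092). Hfe, an iron-regulating relative, fell by 0.38 ± 0.06 in obese against regular weight mice in air (limma adjusted p = 1.8e-05).

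Interferon genes formed the remaining lists. In the comparison of mainstream smoke with air in obese mice, where 20.5% of all genes were called and 11.3% called higher, 9 of 15 genes of interferon gamma signalling and its targets rose. Among them were the receptor subunit gene Ifngr2 at 0.47 ± 0.08 (limma adjusted p = 8.9e-06), the kinase gene Jak2 at 0.40 ± 0.06 (3.7e-06), the class II transactivator gene Ciita at 0.67 ± 0.13 (1.2e-04) and the chemokine gene Cxcl10 at 3.30 ± 0.59 (4.3e-05). Of the 15, 5 were called without DIO-MS-1 and DIO-MS-6, among them Cxcl10 at 2.00 ± 0.40, where 13.1% of all genes were called. Ifng itself was not called at 0.32 ± 0.26 (limma adjusted p = 0.44), with 6.33 on DIO-MS-1 and 5.97 on DIO-MS-6 and a group median of 4.08, against 4.01 to 4.48 in DIO-SC lungs. Of 10 type I interferon response genes 3 rose, Ifit3, Ifit1 and Mx1, and 0 were called without the 2 arrays (limma). Sidestream smoke against air in obese mice called none of the loading, proteasome and interferon genes. In regular weight mice, mainstream smoke against air called 2 of the 15 interferon gamma genes higher and 1 lower (limma, 14.6% of all genes called). The 15 differences ran from -0.32 to 1.97, and no type I gene was called there.

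Across the 48 arrays the class I score correlated with the interferon gamma list at r = 0.95 and with the type I list at r = 0.84, and over the 43 arrays at 0.90 and 0.58. The lists hold none of the 9 genes, but they share the arrays. The high arrays were not alike. On RW-SS-1 the interferon gamma list scored 0.65 and the type I list -0.20. On RW-MS-7 the values were 0.58 and 1.64, on RW-SC-4 0.21 and 0.93, and on DIO-MS-1 1.82 and 3.27. RW-SS-8 scored 0.67 and 0.38.

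**Figure D4:**
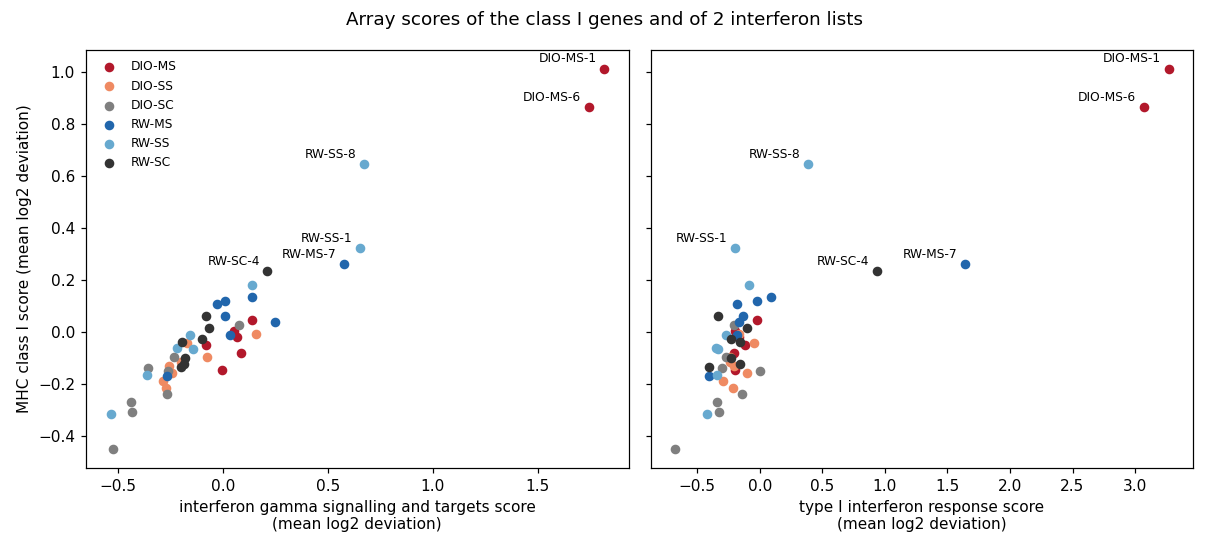
Class I score of each array (vertical axis) against its score for interferon gamma signalling and targets (left, horizontal axis) and for the type I interferon response (right), all as mean log2 deviations, 48 points coloured by group with 6 arrays named. The points follow a line in the left panel (r = 0.95), while in the right panel RW-SS-1 is high in class I genes at a type I score of -0.20 and RW-MS-7 lies far to the right at 1.64.

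By correlation with the class I score over the 48 arrays, the 8 most similar genes outside the set were Iigp1 (r = 0.945), Cd274 (0.945), Ifi47 (0.940), Zbp1 (0.931), Plac8 (0.927), Uba7 (0.926), Parp9 (0.924) and Gbp2 (0.923). Over the 43 arrays they were Iigp1 (r = 0.908), Gbp2 (0.903), Gbp3 (0.902), Ifi47 (0.890), Zbp1 (0.878), Cd274 (0.873), Gbp6 (0.864) and Gbp7 (0.855). Iigp1, Gbp2, Ifi47, Zbp1 and Cd274 were in both lists.

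Probe sets of the same gene did not all agree. For Tap1, 2 probe sets with group means of 3.18 to 3.94 correlated with the other members at about 0 (-0.004 and 0.003 over 48 arrays), and in obese mice neither differed between mainstream smoke and air by more than 0.06. The other Tap1 probe set, with group means of 6.25 to 6.54, correlated at 0.80 and differed by 0.28 ± 0.11 (limma adjusted p = 0.057). For H2-D1, 5 of 9 probe sets were called higher in that comparison, against 10.2% of all probe sets. Of the others 3, with DIO-MS means of 4.17 to 6.56, correlated with the other members at only 0.26 to 0.40. All 4 H2-K1 probe sets were called. None of these 9 calls of H2-D1 and H2-K1 was made without DIO-MS-1 and DIO-MS-6, or without the 5 arrays (limma). Every H2-K1 probe set and 7 of the 9 for H2-D1 are of the type that can match several transcripts, and class I heavy chains are close in sequence, so that H2-K1, H2-D1 and their relatives may share signal. With probe sets of that type left out, H2-D1 was not called for mainstream smoke in obese mice (0.37, limma adjusted p = 0.063). Its probe set there had a DIO-MS mean of 10.17 and correlated with the other members at 0.88.

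Markers of other cells differed in the same comparison and on the same arrays. With mainstream smoke against air in obese mice 5 of 6 macrophage markers and 8 of 8 MHC class II and dendritic cell markers rose, with medians of 1.55 and 0.64. Of all genes 11.3% were called higher there. The class II list scored highest on DIO-MS-1, at 0.67, and its 8 genes were also called without DIO-MS-1 and DIO-MS-6. Macrophage scores were 0.68 to 1.19 in DIO-MS lungs and -0.84 to -0.32 in DIO-SC lungs. In RW-MS lungs, where no class I gene was called, they were 0.59 to 1.40, against -0.58 to -0.33 in RW-SC lungs. CD8 T and NK cell markers scored 1.10 on DIO-MS-1 and 0.66 on DIO-MS-6, against -0.37 to -0.21 on the other 6 DIO-MS arrays and -0.37 to 1.61 in DIO-SC lungs. Leukocyte markers scored 0.66 and 0.65 on DIO-MS-1 and DIO-MS-6, against -0.16 to 0.07 on the other 6 and -0.58 to 0.79 in DIO-SC lungs. The highest DIO-SC scores of both lists, 1.61 and 0.79, were those of DIO-SC-7, the array with thymocyte and fat markers. The next highest DIO-SC scores were 0.21 for CD8 T and NK cell markers and -0.18 for leukocyte markers. Neutrophil markers, of which 2 of 6 rose in that comparison, scored 0.79 on DIO-MS-1 and 1.02 on DIO-MS-6, the highest of the 48 arrays, against -0.02 to 0.26 on the other 6. Endothelial markers scored -0.49 and -0.46 on the 2 arrays, against -0.20 to 0.17 on the other 6. On RW-SS-8, CD8 T and NK cell markers scored 0.22 and leukocyte markers 0.07. The part of these cells in the class I differences was not tested.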

How the data were processed

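Total RNA of whole lungs was hybridised to Affymetrix arrays, 1 per animal, per the labels' protocols. The authors deposited log2 signals made by RMA, per the submitters' processing notes. The version is not given in the sources used here, nor whether the arrays were processed in 1 run. RMA draws arrays to a common distribution, so a shift shared by most genes is reduced. Array medians were 7.82 to 7.94, and the number of arrays limits the precision.

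Of 22690 probe sets, 691 carried several symbols and 1606 had no annotation entry, and 20380 with a single symbol were tested. Groups were taken from titles. Means of the 6 groups were fitted over 48 arrays with limma 3.58.1 (lmFit and eBayes) in R 4.3.3, giving 11 comparisons. P-values were Benjamini-Hochberg adjusted over all probe sets of a comparison and called below 0.05. A gene was represented by its probe set of highest mean signal. P-values measure the spread between animals. No extraction or scan batch was given. The labels do not say that replicate numbers pair animals across groups. Same-numbered arrays of different groups correlated in their deviations at a median of 0.02 (120 pairs), and differently numbered arrays at -0.008 (840 pairs). The medians do not show whether same-numbered animals were handled together. Simulated data for mainstream smoke against air in obese mice held 20380 probe sets, 200 of them changed. The fit recovered 86% of changes of 0.5 and 99% of changes of 1 on the log2 scale, with 8 calls among unchanged probe sets. Noise was drawn independently per probe set with the same SD in every group, and changes were added to all DIO-MS arrays alike. The members were correlated, and their DIO-MS spread came largely from DIO-MS-1 and DIO-MS-6, so these figures do not carry over to them.

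The members and lists were chosen with earlier results of these data known. Named genes were all members, up to 6 called genes per list and comparison in order of adjusted p, and the 8 genes most like the members' score. Psmb5, Psmb6, Psmb7 and Ifng were named for their roles. Alternatives left out arrays, dim or cross-matching probe sets, centred arrays, fitted only the compared groups, used 1 probe set per gene, a trended robust prior, or a replicate block.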

Additional observations from a re-analysis of the deposited data

Results flagged for a closer look

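Among 54 sets of 8 values (9 genes in 6 groups), 4 held an array whose gap to its nearest neighbour exceeded Dixon's 95% critical value for 8 samples, and chance alone flags about 1 in 20 such sets. H2-K1 was 13.97 on RW-SC-4, against 13.52 to 13.70 on the other 7 arrays of that group. B2m on the same array was 14.24, against 13.91 to 14.06 on the others. Tapbp was 12.62 on RW-SS-8, against 12.10 to 12.30 on the other RW-SS arrays. Psmb8 was 11.27 on DIO-SC-7, against 10.15 to 10.52 on the other DIO-SC arrays, and DIO-SC-7 also had a thymocyte marker score of 5.19. The part of thymic tissue in that value was not tested. DIO-MS-1 and DIO-MS-6 were not found this way, since the measure looks at the gap of a single array and they lie close to each other.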

How the results depend on the processing

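No called difference of a member changed sign under the alternatives run. For mainstream smoke against air in obese mice, where 7 of 9 members were called, the count was 1 without DIO-MS-1 and DIO-MS-6, 2 without the 5 arrays that stand apart, 1 with only the compared groups fitted and 4 to 8 when leaving out each array in turn (4 without DIO-MS-1 or DIO-MS-6). It was 8 without dim probe sets, 6 with centred arrays or a trended robust prior, and 7 with 1 probe set per gene. Without cross-matching probe sets, which leaves no value for H2-K1, it was 5 of 8 genes. H2-D1 was then not called (0.37, limma adjusted p = 0.063). Of all 20380 probe sets, 3843 were called in this comparison with all arrays and 2362 without DIO-MS-1 and DIO-MS-6. Without the 5 arrays 3146 were called, and with only the compared groups fitted 1615. For mainstream against sidestream smoke in obese mice, with 4 called, the count was 0 without DIO-MS-1 and DIO-MS-6 and 1 without the 5 arrays. It was 1 with only the compared groups, 2 with centred arrays and 1 to 5 over single arrays left out. Of all 20380 probe sets, 2838 were called there with all arrays, 1128 without DIO-MS-1 and DIO-MS-6 and 1916 without the 5. With only the compared groups 3370 were called, and with centred arrays 3132. Obese against regular weight mice in air gave 1 call, lower, without the 5 arrays, with 1461 of 20380 probe sets called. With all arrays 0 members were called. The other comparisons kept a count of 0 throughout. With a replicate block the counts were 7, 4 and 0 in the other 9 comparisons, and it changed no member's call. The labels do not say that the numbers pair the animals. Of single-gene values, 846 kept their side of the threshold, 32 lost the call and 2 gained it. The 846 include values called in neither fit that changed sign. Tap2 for mainstream smoke against air in obese mice did so without DIO-MS-1 and DIO-MS-6. Which property of DIO-MS-1 and DIO-MS-6 sets these counts was not tested. The arrays cannot show whether low Tap1 probe sets near 3 differ, and 8 animals a group left intervals as wide as -0.07 to 1.29 for Tap1 in the diet comparison of mainstream responses.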
